A study of Mus musculus with 6 samples.

Results

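Ciliated airway cells were described in the pooled single-cell RNA sequencing matrix of sorted mouse lung tumour cells. The cells were selected on measured transcripts: a cell was called ciliated when at least 500 genes had a unique molecular identifier (UMI, the tag that marks 1 captured transcript) and at least 3 of the 6 genes Foxj1, Ccdc153, Tmem212, Dynlrb2, Fam183b and Dnah12 had 1 UMI or more. This rule found 54 cells among the 13936 cells with at least 500 genes, out of 16017 barcodes in all, a share of 0.387% (exact binomial 95% interval 0.291 to 0.505%). All intervals given for this matrix cover counting error only.

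The tumours were induced with lentiviral Cre delivered through the trachea and grew for 20 weeks, and treatment with vehicle or tamoxifen lasted 2 weeks. Lkb1XTR/XTR and Rosa26LSL-tdTomato were among the alleles that the 6 mice shared, so that Cre switched on the tdTomato label and the gene trap that interrupts Lkb1 (gene symbol Stk11) and carries GFP. The 3 restored mice also carried FLPo-ERT2 and received tamoxifen, which activates the recombinase that removes the trap. The 3 non-restored mice were 1 FLPo-ERT2 carrier given vehicle and 2 mice without FLPo-ERT2, of which 1 received tamoxifen and 1 vehicle. Of the 6 mice 4 were male and 2 female. By the study's methods the sort kept tdTomato-positive cells and removed cells stained for blood and endothelial antigens, and any cell type reached by the virus could carry the label. The promoter that drives Cre is not given in the sources used here. The matrix held all libraries together and no file read here names the mouse of a cell, so the pool was treated as 1 sample without replicates, and restored against non-restored mice was not analysed here.

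Ciliated cells line the conducting airways and beat in concert to move mucus towards the throat. Each of their many cilia is built on a basal body and holds an axoneme, a ring of microtubule doublets around a central pair, on which rows of dynein arms produce sliding that radial spokes and nexin links turn into bending. The transcription factor FOXJ1, together with factors of the RFX family, switches on the genes of this machinery. Club cells, the secretory cells of the bronchioles, can give rise to ciliated cells, and Scgb1a1 is their main secreted product.

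Promoters of the genes that defined the cells were read for the binding motif of RFX factors, because these factors control ciliary genes. The promoter table (RefSeq, GRCm38.p6, from 250 bases before to 50 bases after the start of transcription) held 5 of the 6 selecting genes. The RFX half-site GTTGCC, searched on both strands, was present in 3 of these 5, which are printed here 5′ to 3′ on the gene's strand with the half-site in capitals. They lie at chr9:44240427-44240726 on the plus strand (Ccdc153), chr8:116504765-116505064 on the plus strand (Dynlrb2) and chr11:58801911-58802210 on the minus strand (Fam183b).
Ccdc153: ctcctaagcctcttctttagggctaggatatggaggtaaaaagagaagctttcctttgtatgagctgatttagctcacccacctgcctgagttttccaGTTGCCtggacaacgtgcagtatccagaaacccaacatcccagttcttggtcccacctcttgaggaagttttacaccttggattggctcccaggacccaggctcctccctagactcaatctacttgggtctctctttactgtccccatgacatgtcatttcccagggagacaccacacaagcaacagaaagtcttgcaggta
Dynlrb2: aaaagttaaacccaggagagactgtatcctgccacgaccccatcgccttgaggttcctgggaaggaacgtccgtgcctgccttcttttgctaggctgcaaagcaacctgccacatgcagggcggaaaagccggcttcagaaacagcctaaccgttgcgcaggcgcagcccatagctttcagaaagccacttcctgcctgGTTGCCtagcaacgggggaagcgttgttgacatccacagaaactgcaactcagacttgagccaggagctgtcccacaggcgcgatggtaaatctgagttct
Fam183b: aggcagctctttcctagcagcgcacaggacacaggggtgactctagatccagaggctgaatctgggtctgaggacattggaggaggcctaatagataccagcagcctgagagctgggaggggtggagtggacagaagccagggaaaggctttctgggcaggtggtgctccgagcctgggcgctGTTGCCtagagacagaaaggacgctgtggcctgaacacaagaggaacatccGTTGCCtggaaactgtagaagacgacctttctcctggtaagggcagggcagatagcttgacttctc

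The half-site began 152 bases before the start of transcription in Ccdc153 and 51 bases before it in Dynlrb2, and Fam183b held 2 copies, the first 67 bases before the start. Among the other genes of the motile cilium lists, 44 of 99 promoters (44.4%) held it, against 12.5% of all 32851 promoters of the table. The forkhead motif TGTTTAC, searched the same way, was in 0 of the 5 promoters, in 5.05% of the motile cilium promoters and in 3.65% of all promoters. These are matches of letters in a window and were not tested for binding.

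The selecting genes themselves are given as a description, since they chose the cells. Foxj1, the master regulator of motile cilia, had 0 to 37 UMIs in a ciliated cell with a median of 9, and a UMI in 53 of the 54 cells. Fam183b and Ccdc153, which encode axonemal proteins, had a UMI in all 54 cells, with medians of 19.5 and 14.5 UMIs. Dynlrb2, a dynein light chain, was found in 53 cells with a median of 15 UMIs, Dnah12, an inner arm dynein heavy chain, in 52 with a median of 7, and Tmem212 in 46 with a median of 6. In the other cells a UMI of Dynlrb2 was found in 7.66% and of Foxj1 in 1.07%, and of each remaining selecting gene in 0.0576 to 0.173%. In the GENCODE M21 annotation of GRCm38 the selecting genes lie on different chromosomes or far apart, Foxj1 at chr11:116330704-116335399, Fam183b at chr11:58792797-58801960, Ccdc153 at chr9:44240676-44247306, Tmem212 at chr3:27866066-27896368, Dynlrb2 at chr8:116504974-116515915 and Dnah12 at chr14:26693274-26891703.

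The threshold fell in a gap. Of the ciliated cells 45 had all 6 selecting genes, 7 had 5, 1 had 4 and 1 had 3, while 20 cells had 2, 1231 had 1 and 12631 had none. The 111 other genes of the motile cilium lists, which the rule did not use, separated the same cells: 25 to 95 of them had a UMI in a ciliated cell (median 81), and the 20 cells with 2 selecting genes had 0 to 13. Just inside the threshold, the cell with 3 selecting genes had 45 of these genes and 2.80% of its 2426 UMIs on them. Just outside, 16 of the 20 cells with 2 selecting genes had Dynlrb2 and 15 had Foxj1, and at most 0.169% of a cell's UMIs were on motile cilium genes. One cell outside the rule, noted after its values were seen, had 48 motile cilium genes and 1.63% of its 4979 UMIs on them, with 12 UMIs of Dnah12, 60 of Scgb1a1 and none of the other 5 selecting genes.

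**Figure D1:**
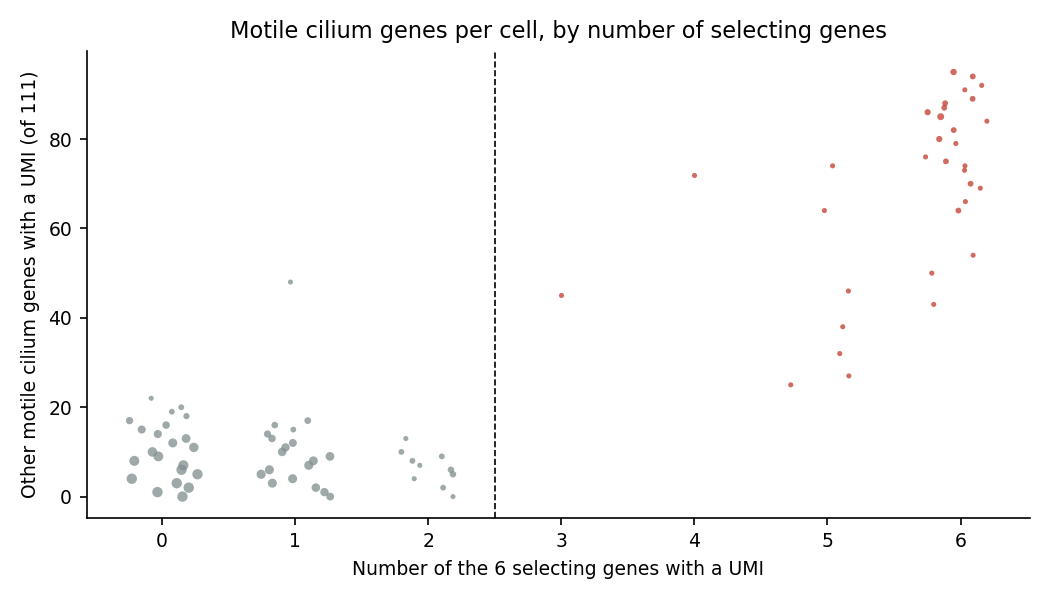
Number of the 111 motile cilium genes outside the rule that had a UMI in a cell (vertical axis), by the number of the 6 selecting genes detected (horizontal axis). Each point is a number of genes seen in at least 1 cell, with a size that grows with the logarithm of the number of cells; cells right of the dashed line (red) are the 54 ciliated cells, with 25 to 95 genes, and those left of it (grey) reach 48 in 1 cell and 22 otherwise.

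The depth of the cells bears on every share below. Ciliated cells had 1335 to 125731 UMIs (median 12843.5) and other cells a median of 16883, while the median number of genes was 4337 and 3912. Mitochondrial transcripts made up a median of 6.40% of the UMIs in ciliated and 4.16% in other cells, and 4 ciliated cells were over 20%. Levels are in CPM: a gene's UMIs were added up over a set of cells and scaled to 1000000 UMIs in total, which gives deep cells more weight. These are counts of tags from the 3′ ends of transcripts, which do not scale with transcript length.

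Of the 54 cells 5 stood apart, and the main values are given with and without them. In these 5 mixed cells, picked out after their values were seen, Scgb1a1 or Sftpc, the surfactant gene of alveolar type II (ATII) cells, exceeded 5% of the UMIs. They had 22246 to 125731 UMIs and held 35.8% of all UMIs of the ciliated cells, so a summed level of the 54 is in good part a level of these 5. The deepest of them had 70687 UMIs of Scgb1a1 (56.2% of its UMIs) and the next 55649 (53.1%), with 100 and 70 UMIs of Sftpc. The third had 6393 UMIs of Scgb1a1 and 3061 of Sftpc. The remaining pair had 2621 and 1925 UMIs of Sftpc with 0 and 20 of Scgb1a1. All 5 had all 6 selecting genes and 64 to 86 motile cilium genes, but these genes made up 0.243 to 1.58% of their UMIs against 1.49 to 4.35% in the other 49. No doublet caller was run, and whether these barcodes held more than 1 cell was not tested.

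**Figure D2:**
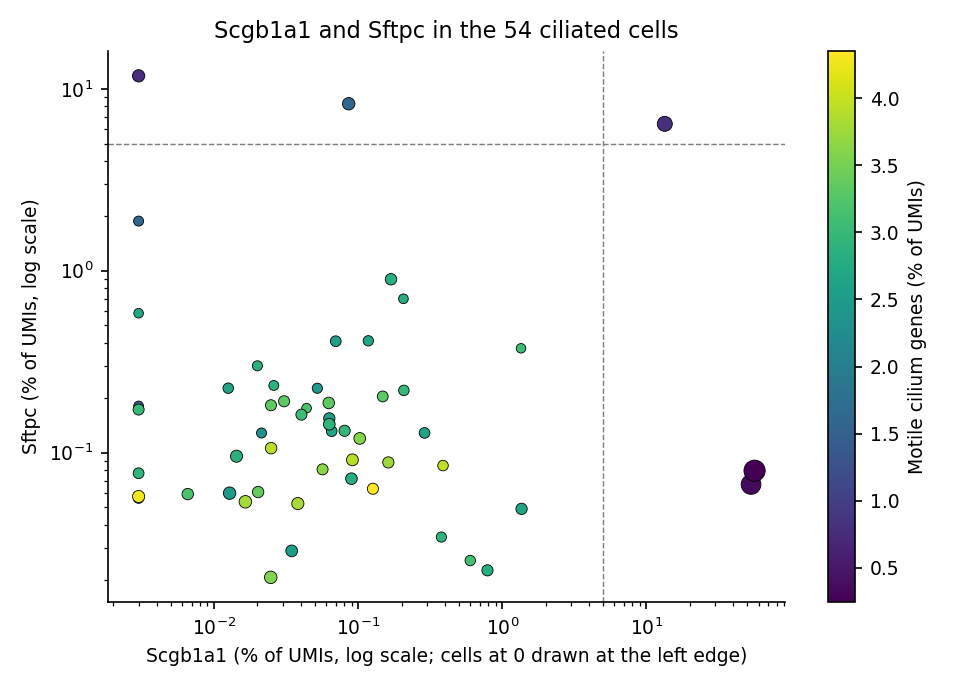
Share of UMIs from Scgb1a1 (horizontal) and from Sftpc (vertical) in each of the 54 ciliated cells, both on log scales, with the cells at 0 for Scgb1a1 drawn at the left edge, colour giving the share of UMIs from motile cilium genes and point size growing with UMIs. Dashed lines mark 5%; the 5 cells past either line are darker, at 0.243 to 1.58% on motile cilium genes, than most of the 49 others.

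Genes of the motile cilium were higher in the ciliated cells as a group. Over the 7194 genes with at least 20 CPM in either set, 13.8% were at least 4-fold higher in the ciliated cells and 5.44% at least 4-fold lower, and the median log2 ratio was 0.11. Of the 111 motile cilium genes outside the rule, 100 were compared, 93 of them only through their level in the ciliated cells, and 99 were at least 4-fold higher and 0 lower, with a median log2 ratio of 9.51. Genes that passed only through the ciliated level had to be higher, so this count describes the cells and supports nothing further. Without the 5 mixed cells the background was 16.6% higher and 6.76% lower, the median over all genes 0.37, and the motile cilium median 10.0 with 99 genes higher.

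The dynein arms are the motors of the axoneme. The 11 of 13 outer arm genes and 11 of 11 inner arm genes that were compared were at least 4-fold higher, beside 13.8% of all genes. All of them passed the minimum of 20 CPM only through the ciliated cells, so this direction was fixed. The outer arm genes not compared were Dnah8, a heavy chain with 5 UMIs in the ciliated cells, and Nme8, with 0. Dnah5, an outer arm heavy chain, had 16 UMIs in its highest cell, a median of 4 and a UMI in 44 cells, and its level was 297 CPM (420.0 without the 5) against 0.0114 CPM in other cells. Dnah9, an outer arm heavy chain of the distal cilium, stood at 155 against 0.209 CPM, a log2 ratio of 9.53 (9.07 to 10.01). Among inner arm genes Dnali1, a light chain, had 204 against 0.0304 CPM and Dnah6, a heavy chain, 252 against 0.118 CPM. The heavy chain genes Dnah7a, Dnah7b and Dnah7c are near-identical copies, so their separate values, 104 CPM for Dnah7a and 49.7 for Dnah7b, are uncertain.

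The factors that assemble dynein arms in the cytoplasm spanned a wide range of ratios. Of 12 compared, 11 were at least 4-fold higher, beside 13.8% of all genes, with a median log2 ratio of 4.61. Of these 12 genes 8 passed the minimum only through the ciliated cells, which fixed their direction. Lrrc6 and Dnaaf1, which serve cilia, had log2 ratios of 13.35 (11.45 to 16.43) and 10.35 (9.35 to 11.51). Ruvbl1 and Ruvbl2, helicase-like ATPases of many complexes, were already at 25.7 and 22.2 CPM in other cells and had ratios of 4.35 (3.54 to 5.29) and 6.58 (5.49 to 7.81). Pih1d1, a cochaperone partner of these ATPases, had 44.2 against 29.8 CPM and was the 1 motile cilium gene of the 100 compared that stayed under 4-fold.

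Genes of the radial spokes, the central pair and the nexin links are described in the same way. Rsph1, a radial spoke head protein, had a median of 10 UMIs, a maximum of 38 and 613 CPM against 1.22. Spag17 and Hydin, proteins of the central pair, were at 201 and 170.2 CPM against 0.00760 and 0.0342. Ccdc39 and Ccdc40, the pair of rulers that set the repeat of the axoneme, were at 254 and 130.4 CPM against 0.0912 and 0.152, and both were found in most of the cells (50 and 43 of 54). All 15 spoke and central pair genes compared and all 11 nexin link and ruler genes were at least 4-fold higher, beside 13.8% of all genes. All of them were compared only through the ciliated cells, which fixed the direction. Rsph3a and Rsph3b, near-identical copies, were under 20 CPM in both sets and were not compared.

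Genes for proteins inside and around the doublet microtubules, 40 of which were compared, were all at least 4-fold higher, beside 13.8% of all genes, but 37 of them were compared only through the ciliated cells, which fixed their direction. AU040972, known as a marker of ciliated cells, had a median of 29 UMIs and 269 in its highest cell, and 3251 CPM (4878 without the 5) against 0.163. Tppp3, a tubulin polymerization protein, had a median of 24.5 UMIs and 2062 against 68.5 CPM, and it was the gene of this group with the highest level in other cells, with a UMI in 17.8% of them after every cell was thinned to 5000 UMIs. Mlf1, a ciliary adaptor named among the markers, had 479.7 against 0.243 CPM. Tekt1, a tektin filament of the doublet wall, had 353 against 0.289 CPM, and Sntn, a protein of the ciliary tip, 289 against 0.00760 CPM. Among the nucleotide kinases, 6 of 7 were at least 4-fold higher, all 6 likewise compared only through the ciliated cells, with Ak7 at 315 against 0.0304 CPM, while Ak1, the general cytosolic adenylate kinase, had 40.9 against 21.7.

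**Figure D3:**
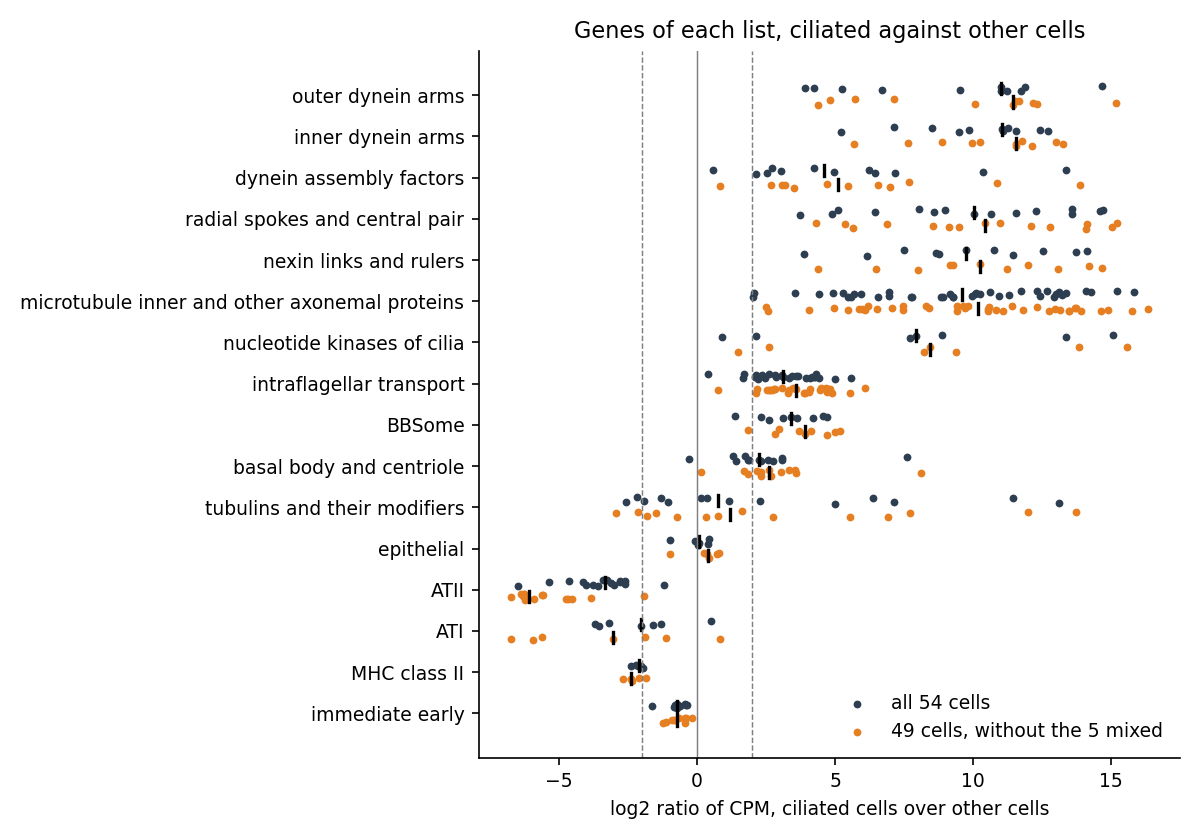
Log2 ratio of CPM in ciliated over other cells (horizontal axis) for each compared gene, in lists by function (vertical axis), with all 54 cells in dark blue, without the 5 mixed cells in orange, black bars at the medians and dashed lines at 4-fold. Dynein, spoke, nexin and doublet genes lie mostly right of the upper line, transport genes nearer to it (median 3.10), epithelial genes around 0 and ATII genes to the left (median -3.33, and -6.08 without the 5 cells).

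Genes for building a cilium that other cell types also use had smaller ratios. Intraflagellar transport carries axonemal cargo along the cilium, and 24 of 27 compared genes were at least 4-fold higher, beside 13.8% of all genes, with a median log2 ratio of 3.10 (3.58 without the 5). Of these 27 genes 21 passed the minimum only through the ciliated cells, which fixed their direction. Traf3ip1, a transport component also known as IFT54, had the highest ratio among those compared, 423 against 8.83 CPM, and Ift88, a core component, had 145 against 8.09. Ift20, which also works at the Golgi, was at 292 CPM in ciliated and 221 CPM in other cells. The BBSome, a coat that sorts membrane proteins of cilia, had 8 of 9 genes at least 4-fold higher (median log2 ratio 3.41), where 8 of the 9 passed the minimum only through the ciliated cells, with Bbip1 at 77.4 against 29.6 CPM between the limits. Ttc30a1, Ttc30a2 and Ttc30b are near-identical copies and uncertain as single genes.

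Basal bodies and centrioles gave a mixed list. Of 13 genes compared, 7 were at least 4-fold higher, and without the 5 cells 10, beside 13.8% and 16.6% of all genes. Of the 13 genes 6 passed the minimum only through the ciliated cells, which fixed their direction. Cetn4 and Cetn2, centrins of the basal body, were at 188 and 303 CPM against 0.977 and 36.2. Genes of centriole duplication were low: Plk4, its kinase, had 6 UMIs in all 54 cells, Sass6, the cartwheel protein, 7, and Stil and Cep152, of the same process, 2 and 0. Deup1, the scaffold on which multiciliated precursors amplify centrioles, had 20 UMIs in 13 cells (22.1 against 0.0228 CPM).

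Tubulins and their modifying enzymes lay on both sides, with 6 of 14 at least 4-fold higher and 2 lower, beside 13.8% and 5.44% of all genes. Of the 14 genes 5 were compared only through the ciliated cells and had to be higher. Tuba1a, an alpha tubulin, had a median of 24.5 UMIs and 1640.4 CPM (2389 without the 5) against 52.0, and Tubb4b, the main beta tubulin of axonemes, a median of 30.5 and 1928 (2644) against 398 CPM. Tubb5, a beta tubulin of most cells, was lower, at 58.6 against 221 CPM, a log2 ratio of -1.91 (-2.33 to -1.53), and Tuba4a had 13.3 against 79.2 CPM. Tubb5 was just short of the 4-fold limit in all 54 cells and past it in the 49 cells, while Tuba4a was past it in both. The enzymes that add or trim glutamate and glycine on axonemal tubulin, Ttll6, Ttll3 and Agbl2, had log2 ratios of 13.12 (11.20 to 16.19), 6.36 (6.10 to 6.61) and 7.13 (6.68 to 7.57). Tuba1a, Tuba1b and Tuba1c are close copies whose 3′ reads may be shared, Tuba1a and Tuba1b also overlap the annotated gene Gm49450 on the same strand, and Ttll3 overlaps Arpc4.

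Regulators of the multiciliated state differed in how many UMIs they had. Of 9 compared, 7 were at least 4-fold higher, beside 13.8% of all genes. As 8 of the 9 passed the minimum only through the ciliated cells and had to be higher, nothing is read from this count. The others were E2f4 and E2f5, cell cycle factors used again in centriole amplification, at 23.2 and 23.2 CPM against 24.0 and 13.5. Ccdc78 had 220.0 against 0.213 CPM, Myb, a factor that acts early in multiciliogenesis, 102 against 0.236 CPM in 41 cells, and Trp73, the p53 relative upstream of Foxj1, 50.8 CPM against 1 UMI in all other cells. Rfx3 and Rfx2 were at 60.8 and 33.2 CPM against 6.21 and 2.20. Mcidas, which starts the programme in precursors, had 1 UMI (1.11 against 0.0760 CPM), and Gmnc, its relative, 3 UMIs (3.32 against 0.00760 CPM). Ccno, a cyclin of centriole amplification, had 12 UMIs over the 54 cells (13.3 against 3.28 CPM). These genes were under 20 CPM in both sets and were not compared, and Foxn4 and Cdc20b had 0 UMIs in both. A count of 0 in 904662 UMIs allows a level of up to 3.32 CPM.

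**Figure D4:**
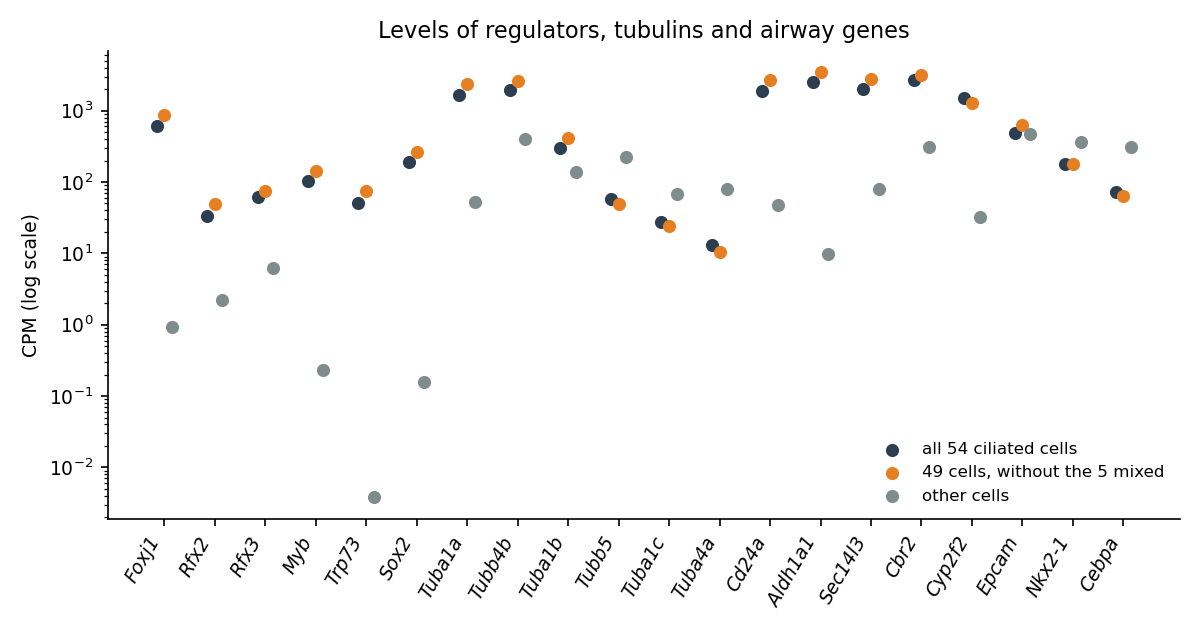
Levels in CPM (log scale) of regulators, tubulins, airway surface genes and lineage factors, for all 54 ciliated cells (dark blue), for the 49 without the 5 mixed cells (orange) and for other cells (grey); no replicates exist, so no error bars are drawn. Foxj1, Myb, Trp73 and Sox2 lie far above the other cells, Tubb5, Tuba1c and Tuba4a below them, and Epcam level with them.

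Of the 10 lineage factors compared, 1 was at least 4-fold higher (Sox2), 1 lower (Cebpa) and 8 between the limits, shares near the 13.8% and 5.44% of all genes. Without the 5 mixed cells 2 were higher and 1 lower, beside 16.6% and 6.76% of all genes. Sox2, the transcription factor of the conducting airway, had 0 to 11 UMIs with a median of 3, a UMI in 45 cells and 192 CPM against 0.156. Foxa1, a lung factor, was at 98.4 against 27.1 CPM, and Foxa2, its relative, at 76.3 against 78.1. Nkx2-1, the factor of lung and alveolar identity, was at 181 against 367 CPM, and Cebpa, which the alveolar lineage uses, at 73.0 (63.7 without the 5) against 305, a log2 ratio of -2.06 (-2.43 to -1.72). General epithelial genes did not separate the sets: 0 of 6 passed 4-fold, and Epcam, an adhesion protein, had 482 against 466 CPM.

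Hopx, a gene used to mark alveolar type I (ATI) cells, was also present in the ciliated cells. It had a UMI in 48 of 54, a median of 5.5 and a maximum of 36, and a level of 455 CPM (573 without the 5) against 324 in other cells. After thinning to 5000 UMIs, which left 45 ciliated and 11423 other cells, 95.6% of ciliated cells had a UMI of it against 35.6% of other cells and 4.81% of cells with fibroblast markers. Of the 7 ATI genes compared, 4 were at least 4-fold lower, 0 higher and 3, Hopx among them, between the limits, beside 5.44% of all genes lower and 13.8% higher. Those with lower levels included Ager, the receptor that marks ATI cells, at 148 (22.4) against 1371 CPM and Aqp5, a water channel, at 94.0 (10.3) against 1109.

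Of 22 genes of the apical surface, of ion transport and of detoxification compared, 14 were at least 4-fold higher and 2 lower, beside 13.8% and 5.44% of all genes, and 9 of the 22 had to be higher because they were compared only through the ciliated cells. Aldh1a1, an aldehyde dehydrogenase, had a median of 32.5 UMIs, a UMI in 53 cells and 2501 CPM (3477) against 9.91. Cd24a, a surface glycoprotein used to sort ciliated cells, was found in all 54 cells at 1902 (2711) against 48.0 CPM. Sec14l3, a lipid transfer protein, Gstm1, a glutathione transferase, and Cyp2s1, a cytochrome P450, had log2 ratios of 4.66 (4.59 to 4.73), 4.29 (4.21 to 4.37) and 8.99 (8.78 to 9.20). Cdhr3, a cadherin of the ciliated surface, had 207 against 0.00760 CPM. On the ion transport side, Slc12a2, the chloride cotransporter of secreting epithelia, and Ano1, a chloride channel, were at 50.8 and 5.53 against 338 and 74.9 CPM, and Cftr, the chloride channel of cystic fibrosis, had 0 UMIs in the ciliated cells.

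Cyp2a5, a P450 of airway and liver, was unevenly spread among the cells. It had a UMI in 34 cells with a median of 1 and 252 UMIs in the highest cell, which held 40.1% of its 629 UMIs. Aldh1a1 was spread evenly by comparison, with 5.92% of its UMIs in its highest cell. Cyp2a5 has a near-identical copy, Cyp2a4, so its value is uncertain as a single gene.

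Club cell genes in the same cells fell into those with a UMI in most cells and those with a UMI in a few. Scgb1a1 had a UMI in 46 of the 54 cells, a median of 6.5 UMIs and a maximum of 70687, and 99.4% of its 133473 UMIs came from 3 cells. Its level was 147539 CPM in all 54 cells and 1246 CPM without the 5 mixed cells, against 139 CPM in other cells, so its ratio went from 1061 (1049 to 1073) to 8.96. In the 49 cells its UMIs ran from 0 to 194 with a median of 6. After thinning, 80.0% of ciliated cells had a UMI of Scgb1a1 against 11.8% of other cells and 9.09% of cells with fibroblast markers, which should not express it.

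Cyp2f2, the P450 that activates naphthalene in club cells, gave a steadier signal. It had a UMI in 50 of 54 cells, a median of 12, and 1482 CPM (1282 without the 5) against 32.1, a ratio of 46.2 (43.6 to 49.0). After thinning, 84.4% of ciliated, 11.0% of other and 0% of fibroblast-marker cells had a UMI of it, with median depths before thinning of 12843.5, 16883 and 15846 UMIs. In the 38 other cells with at least 3 of 6 club markers, a set chosen on such genes, its level was 194 CPM. This set included the cell outside the rule with 48 motile cilium genes, which had 9 UMIs of Cyp2f2. Scgb1a1 was at 22358 CPM there, but 1 cell held 13323 of the 24342 UMIs and the median over cells was 202 CPM. Most cells of that set were rich in Sftpc, with a median of 4002.5 UMIs and a summed level of 141012 CPM, above the other cells.

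Among the other club genes, Ces1d, a carboxylesterase, and Hp, haptoglobin, also had a UMI in most cells (47 and 51 of 54, without thinning). Ces1d was at 840.1 (974 without the 5) against 165 CPM and Hp at 2686 (1052) against 820.3 CPM. Both were thus frequent in other cells too, and whether their UMIs came from free RNA was not tested. Scgb3a2, a secretoglobin, had a UMI in 8 cells and 99.6% of its 2300 UMIs in 3 of them, and its level went from 2542 CPM to 15.5 CPM without the 5. Scgb3a1 was in 6 cells, with 134 of its 140 UMIs in 1. Lypd2, a surface protein of airway epithelium, was in 33 cells at 134 against 0.635 CPM. Bpifa1 and Bpifb1, secreted airway defence proteins, and Upk3a and Kcnj16 had 0 UMIs. All 6 basal cell markers, among them Trp63, Krt5 and Krt14, had 0 UMIs, and so did the goblet cell mucin Muc5ac. In other cells the basal markers together were at only 1.49 CPM, so their zeros do not separate the sets. Of 12 club genes compared, 11 were at least 4-fold higher and 0 lower in all 54 cells, and 10 without the 5, beside 13.8% of all genes higher, or 16.6% without the 5. As 8 of the 12 passed the minimum of 20 CPM only through the ciliated cells and had to be higher, nothing is read from this count.

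Genes of Notch signalling, which decides between secretory and ciliated fates in the airway, lay on both sides. Jag2 and Jag1, ligands, were at 38.7 and 112 CPM against 4.04 and 31.1, and Hey1 and Hes1, target genes of the pathway, at 35.4 and 293 against 0.958 and 136. Of 7 genes compared, 2 were at least 4-fold higher (Jag2 and Hey1, both compared only through the ciliated cells) and 1 lower, beside 13.8% and 5.44% of all genes, and nothing is read from so small a count. The lower gene was Dlk1, a noncanonical ligand, with 1 UMI in the ciliated cells against 358 CPM, a log2 ratio of -8.34 (-13.64 to -5.86). Fzd6 and Vangl1, genes of planar polarity that orients cilia, had 35.4 and 32.1 CPM against 7.50 and 6.63, and Celsr1, another, 38.7 against 33.8.

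Genes of the alveolar tumour cells were lower, and by how much depended on the 5 mixed cells. Sftpc had 2 to 3061 UMIs in a ciliated cell (median 13.5), a range that overlaps that of the other cells, whose median was 1306. Its level was 9563 CPM, or 1504 CPM without the 5, against 114602 CPM in other cells, 12.0-fold lower and 76.2-fold lower. Of the 16 ATII genes, 15 were at least 4-fold lower, beside 5.44% of all genes, with a median log2 ratio of -3.33 (-6.08 without the 5). Lyz2, lysozyme of ATII and myeloid cells, had 370.3 (153) against 9221 CPM, and Fabp5, a fatty acid binding protein, 4.42 against 396. Sftpc was at 10965 CPM in 111 cells with endothelial markers, 5624 CPM in 235 with fibroblast markers and 9775 CPM in 78 with immune markers, sets from which no cells with high Sftpc were left out (maximum 6457, 6457 and 8185 UMIs). The median over cells, which such cells sway less, was 1284 CPM in the 49 ciliated cells against 1054 CPM in endothelial-marker, 978 CPM in fibroblast-marker and 751 CPM in immune-marker cells, and after thinning 4.5 UMIs against 4 in each of these sets. The summed level of the 49 cells was thus below those of these sets, and their median cell was not.

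The tdTomato transcript, the label of the sort, was low in the ciliated cells. It had a UMI in 50 of 54 cells, with 0 to 129 UMIs and a median of 5, while other cells had a median of 97. The level was 560 CPM, or 367 CPM without the 5, against 7012 CPM in other cells, 12.5-fold lower (exact 95% interval 11.5 to 13.7) and 19.1-fold lower (16.7 to 22.0). After thinning, 75.6% of ciliated cells had a UMI and the median was 2 UMIs, against 98.9% and 31 in other cells, and 42 of 45 ciliated cells lay below the 5th percentile of the other cells (8 UMIs). In cells with fibroblast markers the level was 669 CPM and 50.8% had a UMI after thinning, in cells with endothelial markers 1174 CPM and 91.6%, and in cells with club markers, most of them rich in Sftpc, 6189 CPM and 97.1%.

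In summed CPM TdTomato in the ciliated cells was thus lower than in each of these sets, while the share of cells with a UMI lay between those of the fibroblast-marker and endothelial-marker cells. The median over cells was 378 CPM in the ciliated, 154 CPM in the fibroblast-marker and 429 CPM in the endothelial-marker cells, the same order. Relative to Sftpc the place of the ciliated cells depended on the 5 mixed cells: all 54 had 58.6 UMIs of TdTomato per 1000 of Sftpc and the 49 had 244. The sets from which no cells were left out had these values: other cells 61.2, club-marker cells 43.9, fibroblast-marker cells 119, endothelial-marker cells 107 and immune-marker cells 251. Whether the ciliated cells expressed the label or carried free RNA was not tested.

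**Figure D5:**
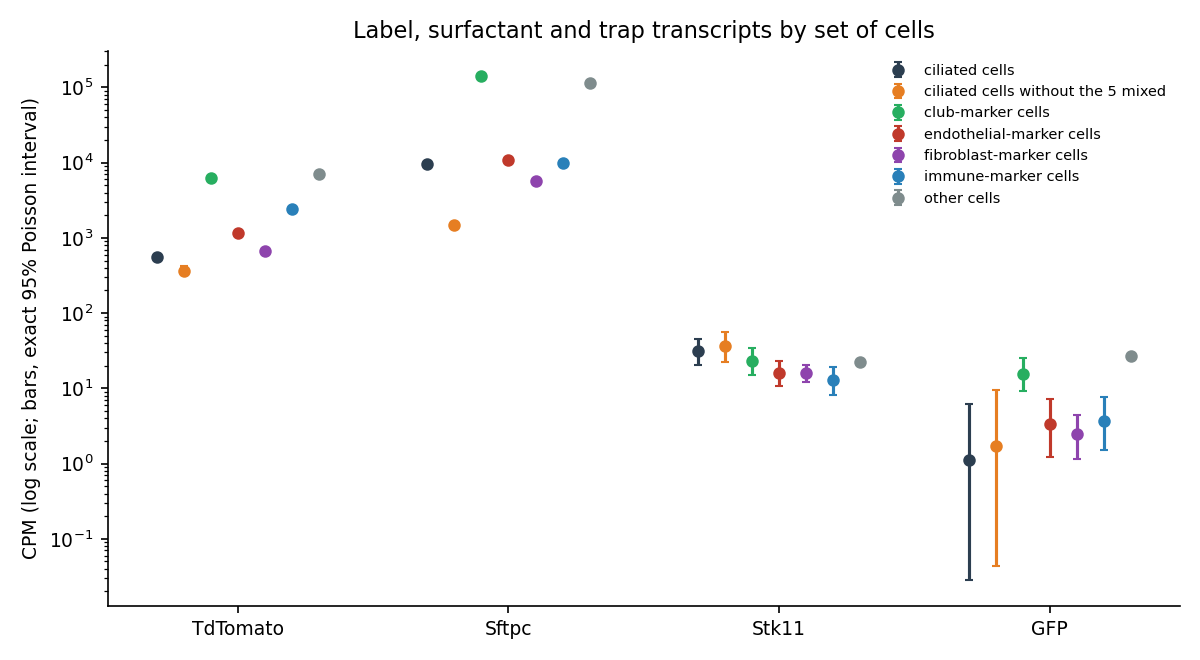
Levels of TdTomato, Sftpc, Stk11 and GFP in CPM (log scale) in the ciliated cells, the 49 without the mixed cells, cells with club, endothelial, fibroblast or immune markers, and all other cells, with exact 95% Poisson intervals. TdTomato in the ciliated cells (560 and 367 CPM) lies below the fibroblast-marker cells (669) and far below other cells (7012). GFP in the ciliated cells rests on 1 UMI.

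The trap and the gene it interrupts were close to the limit of depth in 54 cells. GFP had 1 UMI, or 1.11 CPM (exact Poisson interval 0.0280 to 6.16), against 26.6 CPM in other cells and 15.6 CPM in club-marker cells. In endothelial-marker, fibroblast-marker and immune-marker cells GFP was at 3.32, 2.44 and 3.72 CPM, and the interval of the ratio to each of these sets took in 1. Stk11, which encodes LKB1, had 28 UMIs in 21 cells, or 31.0 CPM (20.6 to 44.7), against 22.1 CPM (21.5 to 22.7), a ratio of 1.40 (0.931 to 2.03). Without the 5 mixed cells it had 21 UMIs and the ratio was 1.64 (lower bound 1.01), so the counting interval took in 1 with these cells and just missed it without them. Mouse and genotype could not be assigned to these UMIs, so they say nothing about restoration.

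Among markers of other cell types, 9 of 13 immune, 4 of 6 endothelial and 5 of 7 fibroblast genes had 0 UMIs in the ciliated cells. The immune genes at 0 included Ptprc, which encodes CD45, and those found were Cd74, Lyz2, Cd68 and Csf1r, of which Cd74, with 843 UMIs in 35 cells, and Lyz2 are also genes of ATII cells. Of 6 endothelial genes, Kdr had 10 UMIs and Pecam1 1, and of 7 fibroblast genes, Mgp had 11 and Pdgfra 1, with all others at 0. Summed, these lists were at 1311, 12.2 and 13.3 CPM in the ciliated cells against 14167, 35.1 and 801 in other cells. Without the 5 mixed cells they were at 921, 1.72 and 17.2 CPM, so nearly all of the endothelial UMIs lay in the mixed cells. Of 10 cell cycle genes 7 were at 0 UMIs, among them Mki67, Cdk1 and Birc5. However, 0 of the 10 reached 20 CPM in either set. Together they were at 19.9 CPM in ciliated and 107 CPM in other cells, so zeros of single genes say little here.

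Outside the lists, the largest ratios among genes with at least 50 CPM belonged again to genes with few or no UMIs in other cells. Fam216b had 154 UMIs in the ciliated cells and 1 in all 13882 others, a log2 ratio of 15.45 (12.95 to 20.76), and 1700001C02Rik 197 and 2. Gm19935 had the highest level of the 20, 733 CPM without the 5 cells, with a median of 6.5 UMIs. Fam92b had no UMI in other cells and was at least 13187-fold higher, taking 3 counts as the limit over all other cells. Ttc29, Stk33, Adgb, Rp1 and Lrrc43 were among the others, and Rp1 and Ttc29 are known from the axoneme. The 10 smallest ratios included Ndnf, a secreted neurotrophic factor, with 1 UMI in the ciliated cells against 164 CPM in other cells, Tgfbi, a matrix protein, with 0 UMIs against 152 CPM (at least 46.0-fold lower, taking 3 counts over the ciliated cells as the limit), and Il33, an epithelial alarmin, with 0 to 6 UMIs and none outside the 5 mixed cells against 345 CPM. A gene at 0 UMIs could thus rank behind a gene with 1 UMI, so the choice of the 10 depends on that limit.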

How the data were processed

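The authors deposited raw counts of UMIs for each gene in each cell. The matrix header and the labels name Cell Ranger 3.0.2 for alignment and counting, build mm10 and Chromium v3 3′ libraries, with GFP and TdTomato added to 31055 features; the annotation release is not given in the sources used here. The pooled matrix (16017 cells, 266713311 UMIs) was used as 1 sample, so no test was run; barcodes shared between libraries were not analysed here.

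Selected and other cells were compared by summed UMIs as CPM, over genes with at least 20 CPM in either set, with exact Poisson, exact conditional binomial and Clopper-Pearson 95% intervals. Ratios against a count of 0 used 3 counts. Shares were also given after thinning each cell to 5000 UMIs (seed 42), which left out 9 ciliated and 2459 other cells. Marker sets of other cells needed at least 3 club, endothelial or immune markers or 4 fibroblast markers. These sets were not made exclusive, so a cell could belong to several. The endothelial-marker and fibroblast-marker sets had the same maximum, 111308 UMIs and 9207 genes. No doublet caller was run. The selecting genes, lists and markers were chosen with earlier results of these data known. Named genes were the listed genes and, outside the lists, the 20 largest and 10 smallest ratios at 50 CPM or more. Dnaic1 and Dnaic2 were matched by their older symbols. Gene positions came from GENCODE M21 and promoters from RefSeq (GRCm38.p6). Another shared allele and some listed genes are not reported here. Scripts were tested on simulated data. Tools were scipy 1.17.1 and numpy 2.4.6 (Python 3.11.15), with matplotlib 3.10.9 for the plots and pandas 2.3.3 for the tables.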

Additional observations from a re-analysis of the deposited data

How the results depend on the processing

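No paired analysis was possible because the matrix gives no sample for a cell, and for the same reason no replicate could be left out. Over 95 recomputed values, 67 stayed within the counting interval of the reported value (for counts of genes, within 1.5 times), 28 moved and 0 changed direction. Leaving out the 5 mixed cells and limiting cells to 20% mitochondrial UMIs were chosen after seeing the data. Requiring 2 of the 6 selecting genes gave 74 cells, a share of 0.531%, 51 genes at least 4-fold lower, a motile cilium median of 8.89, and log2 ratios of 9.41 for Scgb1a1 and -1.16 for Sftpc. The number of genes higher and lower was 349 and 135 at a minimum of 100 CPM, 1543 and 618 at 5 CPM, and 1639 and 1017 at 2-fold, as the construction of these settings implies, and the motile cilium median was 10.05 at 100 CPM. The log2 ratio of Scgb1a1 was 9.99 with at least 200 genes, 10.08 with at least 1000, 3.01 under 98th percentile limits on genes and mitochondrial share, 4.18 with the rule applied after thinning, 7.10 as a mean over cells, 9.60 against other cells of like depth, 9.95 relative to the median gene, 10.09 at up to 20% mitochondrial UMIs and 3.16 without the 5 mixed cells. The log2 ratio of Sftpc was -3.77 under the 98th percentile limits, -3.67 with the rule after thinning, -3.82 as a mean over cells, -3.69 relative to the median gene and -6.25 without the 5 mixed cells. The share of ciliated cells with a TdTomato UMI was 92.6% without thinning and 53.1% at 2500 UMIs. With 54 cells and 904662 UMIs, a gene at 0 UMIs may be as high as 3.32 CPM, and differences between mice could not be seen.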

Other observations

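Stress and presentation genes are added here as values. All 10 immediate early genes compared lay between the 4-fold limits, with a median log2 ratio of -0.73 and Fos, which dissociation of tissue can induce, at 2114 CPM in ciliated and 2718 CPM in other cells. Fos was uneven among the ciliated cells, with a UMI in 40 of 54, a median of 13.5 and a maximum of 300. Of 6 MHC class II genes compared, 5 were at least 4-fold lower, beside 5.44% of all genes (6.76% without the 5 mixed cells), and the 6 had a median log2 ratio of -2.10 (-2.38 without the 5 mixed cells). Cd74, the chain that escorts class II molecules, had a UMI in 35 cells, and 47.8% of its 843 UMIs came from 3 cells.

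Further airway genes differed in how their UMIs were spread over the ciliated cells. Uchl1, a ubiquitin hydrolase used to mark neuroendocrine cells, had 73 UMIs in 23 cells. Reg3g, an antimicrobial lectin, had 33 of its 46 UMIs in 1 cell, and Ly6a, a surface antigen found in 28 cells, 95 of its 219 UMIs in 1 cell. Agr2, a chaperone of mucin-secreting cells, had 24 UMIs in 13 cells, while the mucin Muc5b had 4 UMIs in 3 cells.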
